A study of Mus musculus with 4 samples.

Results

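The features of 10000 bases or more were the longest entries in a total RNA profile of cultured mouse spermatogonial stem cells, from which sperm production in the testis is renewed. They were chosen by the length printed in the deposited tables, and there were 10 of them among 70677 features. The rule sets no minimum count, but each of these features had reads in some library. A feature here means 1 listed identifier with its printed length. The identifiers fall into a series that starts with n, which held 8 of the 10, and a series that starts with TCONS_, which held 2.

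All 4 libraries came from germ cells of C57BL/6 pups aged 6 to 8 days that had been enriched for the surface protein Thy1. The cells were cultured on growth-arrested STO fibroblast feeders in serum-free medium with GDNF, a growth factor needed for their self-renewal, and with GFRA1 and bFGF. The vehicle group (2 libraries) had received 0.1% ethanol for 24 hr, and the retinoic acid group (2 libraries) trans-retinoic acid, which the labels give as 0.3 mM in 0.1% ethanol; that unit could not be checked here, and a slip for µM is possible. The labels do not say that the libraries of a group are separate cultures; p-values then reflect only the spread between these libraries, possibly a technical one. The libraries held 7918431 to 8156257 unique reads. The tables carry no gene names, so markers of germ cells and of the feeder fibroblasts could not be looked up and the labelled cell type was not checked.

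Retinoic acid, a vitamin A metabolite that acts through nuclear receptors, moves spermatogonia from self-renewal towards differentiation. Transcripts of this size include messenger RNAs of very large proteins as well as non-coding RNAs. Among the non-coding ones known in mouse are the long form of Neat1, which scaffolds the nuclear bodies called paraspeckles, and Kcnq1ot1, an unspliced antisense RNA that silences imprinted neighbours on the chromosome it is read from.

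The lengths ran from 10063 to 83437 bases and summed to 237123 bases. None of the 10 identifiers was found in the RefSeq table (GRCm38.p6), so no member is named or placed in the genome. Only the lengths could be set beside an annotation. The length of 20771 bases (n424069) is also that of a Neat1 transcript in GENCODE release M21, where transcripts take 3 of the 1001 lengths within 500 bases on either side. No gene span in RefSeq equals it, though spans take 36.7% of the lengths around it. The length of 52401 bases (n411773) is also that of the antisense transcript Gm4117, which takes the only occupied length in the same window; in RefSeq it is also the genomic span of the protein-coding gene Slc5a4b, where gene spans take 10.9% of the lengths around it. The length of 83437 bases (n413804) is also the genomic span of Kcnq1ot1 in RefSeq, where gene spans take 5.99% of the lengths around it. No GENCODE transcript has this length, and 0 of the 1001 lengths around it are taken there. Equal length does not establish that a feature is that transcript, and the members are called by their identifiers throughout. Of the 7 members under 20000 bases, 5 shared a length with some GENCODE transcript. Around the 7 lengths, 5.49% to 22.4% of lengths are taken. Whether 5 shared lengths are more than coincidence would give was not tested.

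The 10 features held a small part of the reads. Together they took 0.0904% and 0.0668% of the unique reads of the vehicle libraries (95% Wilson intervals 0.0884% to 0.0925% and 0.0651% to 0.0686%, which cover counting error only). In the retinoic acid libraries they took 0.0556% and 0.0666% (intervals 0.0540% to 0.0573% and 0.0648% to 0.0684%). The means were 0.0786% ± 0.017 and 0.0611% ± 0.0078 (SD, n = 2). Vehicle replicate 1 stood highest, and vehicle replicate 2 and retinoic acid replicate 2 differed by less than their counting intervals. An exact two-sided permutation test of 2 libraries against 2 gave p = 0.333, the smallest it can give.

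**Figure D1:**
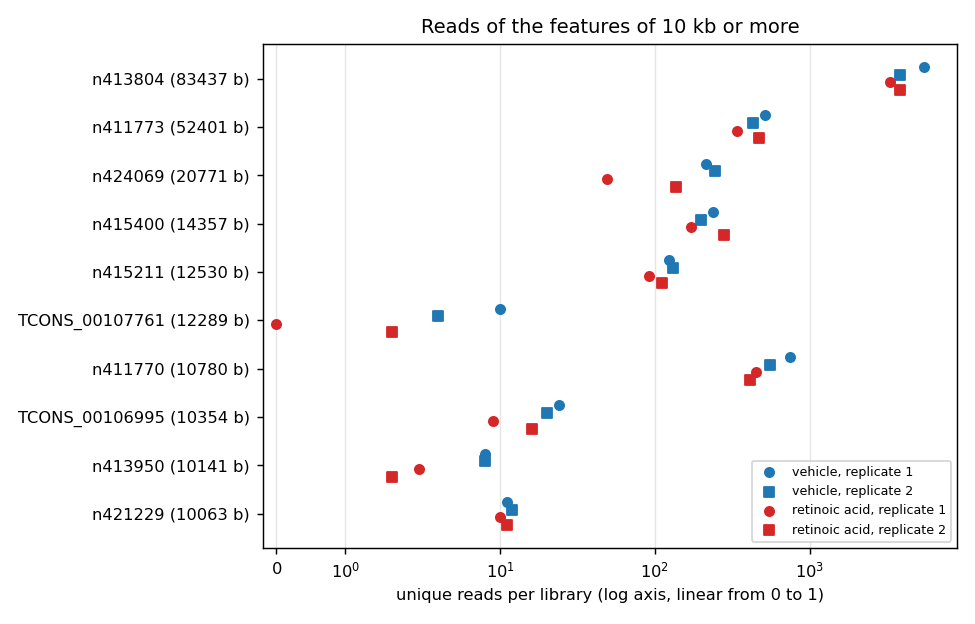
Unique reads of each feature of 10000 bases or more (log axis, linear from 0 to 1), by library; circles are replicate 1 and squares replicate 2, blue is vehicle and red is retinoic acid. n413804 held 3278 to 5482 reads, while 4 features held at most 24 in any library.

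Most of these reads lay in a single feature. n413804, the longest of all at 83437 bases, held 5482 and 3828 reads in vehicle and 3278 and 3834 in retinoic acid, which was 70.4% to 74.4% of all reads in the 10 features. Per length, its RPKM (reads scaled to feature length and library total) was 8.06 and 5.64 in vehicle and 4.96 and 5.80 in retinoic acid. Its mean RPKM of 6.11 was higher than that of 87.9% of all features. The groups overlapped on the RPKM scale, since retinoic acid replicate 2 lay above vehicle replicate 2.

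The most abundant per length was n411770, of 10780 bases, with 746 and 557 reads in vehicle and 453 and 414 in retinoic acid. Its RPKM was 8.48 and 6.35 in vehicle and 5.31 and 4.85 in retinoic acid, so both vehicle libraries lay above both retinoic acid libraries. Its mean RPKM of 6.25 and that of n413804 did not differ beyond their spread between libraries. n411773, of 52401 bases, carries an identifier close to that of n411770, and whether the 2 features lie near each other or share sequence is not known here. It held 517 and 431 reads in vehicle and 341 and 471 in retinoic acid, at an RPKM of 1.21 and 1.01 against 0.822 and 1.13, and its groups overlapped.

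Another 3 features had mean RPKM values between 0.96 and 1.92. n415400, of 14357 bases, had an RPKM of 2.04 and 1.70 in vehicle and 1.50 and 2.46 in retinoic acid, with both vehicle libraries between the 2 retinoic acid ones. For n415211, of 12530 bases, the RPKM was 1.20 and 1.29 in vehicle and 0.927 and 1.12 in retinoic acid, with no overlap. n424069, of 20771 bases, had 1.26 and 1.46 in vehicle and 0.298 and 0.826 in retinoic acid. Both retinoic acid libraries of n424069 lay below both vehicle libraries. The median RPKM over the 10 features was 1.00, against 4.61 for the 851 features of 5000 to under 10000 bases and 0.682 for the 18385 features of 2000 to under 5000 bases.

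The last 4 features were near the limit of detection. TCONS_00106995, of 10354 bases, was hit by 24 and 20 reads in vehicle and 9 and 16 in retinoic acid. n421229, of 10063 bases, had 11 and 12 reads against 10 and 11. n413950, of 10141 bases, had 8 and 8 reads against 3 and 2. The groups of n421229 differed by less than their spread between libraries on the RPKM scale, and n413950 did not pass the filter on low counts. TCONS_00107761, of 12289 bases, was hit by 10 and 4 reads in vehicle and 0 and 2 in retinoic acid, and also did not pass. It was the only member missing from a library, and a count of 0 in retinoic acid replicate 1 allows up to 3 reads, or 3.79e-05% of that library. Reads were thus present in every library for 9 of the 10 features, and at least 20 in every library for 6. Among the 851 features of 5000 to under 10000 bases, 87.8% had reads in every library, and 594 had at least 20. In the classes under 5000 bases, 58.2% to 73.5% had reads in every library.

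Read number alone did not set how much of a feature was covered. A feature with a single read had 90 bases covered in 100% of 12688 cases, within 1 base, so 1 read covers 90 bases. If reads fell evenly at random, coverage would be 1 minus the exponential of minus the mean depth (reads times 90 bases over length). This even-spread coverage was set beside the deposited percent of each length covered. It takes every base as reachable by a unique read. How much of each member such reads can reach was not known here, since no sequence or position was available.

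n413804 was covered over 75.0% and 65.8% of its length in vehicle and 63.3% and 70.6% in retinoic acid, where evenly spread reads would reach 97.1% to 99.7%. In vehicle replicate 1 that amounted to 62611 of its 83437 bases. n411770 was covered over 92.5% and 88.0% in vehicle and 86.7% and 82.8% in retinoic acid, or 85.5% to 92.7% of the even-spread value. Reads therefore ran over most of the length of both abundant features, with a larger part left unread in the longer one.

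n424069 was covered over 47.5% and 54.0% of its 20771 bases in vehicle and 14.4% and 37.2% in retinoic acid. Its coverage was 78.8%, 82.4%, 75.5% and 83.6% of the even-spread value in vehicle replicates 1 and 2 and retinoic acid replicates 1 and 2. The median of that ratio over features of 1000 to under 10000 bases with at least 20 reads was 81.4% to 83.7% in the same libraries. In the 4 libraries, 39.6% to 50.8% of these shorter features had a lower ratio than n424069, while its number of reads differed between the groups. The shorter features were not matched to it in depth, which can shift this ratio.

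The reads of n415400 were piled on a small part of it. They covered 3.68% and 2.92% of 14357 bases in vehicle and 4.19% and 2.57% in retinoic acid, which is 369 to 602 bases, although 170 to 280 reads evenly spread would cover 65.6% to 82.7%. Over the covered part the mean depth was 25.4 to 68.3 reads per base. Of the 15481 to 17412 shorter features compared, at most 0.0258% in any library had a lower ratio of observed to even-spread coverage. The count of n415400 thus comes from reads on at most 602 bases per library. Whether the rest of its printed length is transcribed was not tested.

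n411773 and n415211 lay between these patterns. n411773 was covered over 12.5% and 10.2% of its 52401 bases in vehicle and 5.91% and 8.07% in retinoic acid, or 13.3% to 21.3% of the even-spread value. For n415211 the coverage was 17.9% and 17.5% in vehicle and 13.4% and 13.7% in retinoic acid, or 25.0% to 30.6% of that value. Coverage of both was lower in both retinoic acid libraries than in either vehicle library. How many of all features have this order was not counted. The RPKM of n411773 overlapped between the groups, and that of n415211 did not.

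**Figure D2:**
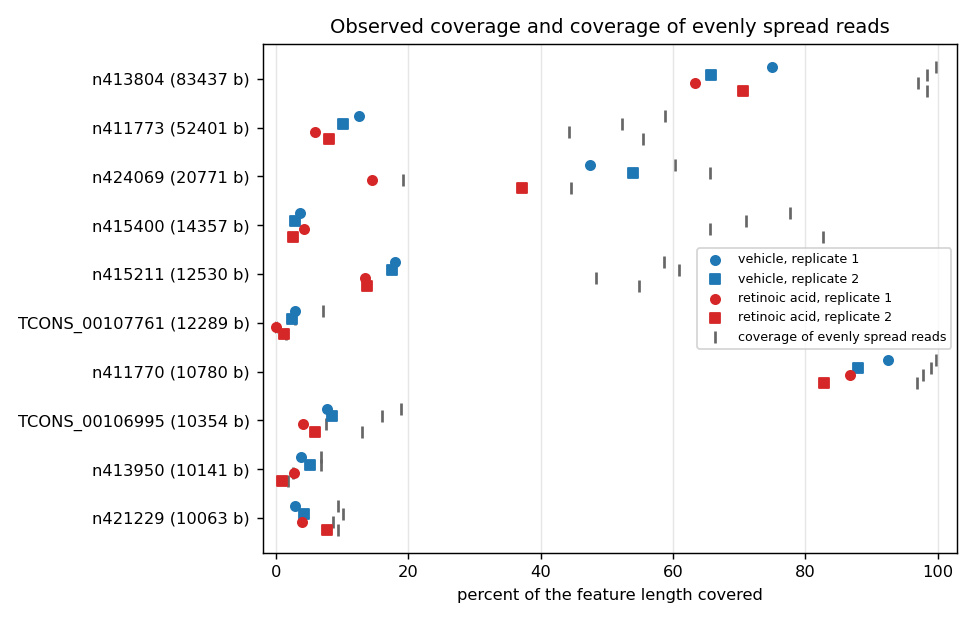
Percent of the length covered in each library for the 10 features (circles, replicate 1; squares, replicate 2; blue, vehicle; red, retinoic acid), with grey ticks at the coverage that evenly spread reads would give. n411770 lies close to its ticks at 82.8% to 92.5%, and n415400 lies at 2.57% to 4.19% with ticks at 65.6% to 82.7%.

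The 4 scarce features were covered over 0.89% to 8.47% of their length in the libraries where they had reads. Over the 6 features with at least 20 reads in every library the median coverage was 32.7% and 35.8% in vehicle and 13.9% and 25.5% in retinoic acid (34.2% ± 2.2 and 19.7% ± 8.2, SD, n = 2; exact two-sided permutation p = 0.333, the smallest possible). In every library this median lay midway between n424069 and n415211. From vehicle to retinoic acid, mean coverage went from 50.7% to 25.8% for n424069 and from 17.7% to 13.6% for n415211. It went from 70.4% to 66.9% for n413804, from 90.2% to 84.7% for n411770 and from 11.35% to 6.99% for n411773. For n415400 it was 3.30% and 3.38%. Reads covered 39.5% and 36.1% of the summed length in vehicle and 30.2% and 35.2% in retinoic acid. Retinoic acid replicate 1 was lowest, and it also listed the fewest features of all libraries (57804 against 58966 to 60950); the part of this in the coverage was not tested.

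With the mean of the 4 libraries taken for each feature, the median coverage of these 6 was 27.0%, against 81.9% for the 594 features of 5000 to under 10000 bases that met the same minimum. Relative to evenly spread reads it was 48.9% against 84.7%. The classes were not matched for abundance, so this gap cannot be put down to length alone. None of these 6 stood near 48.9%. Among members below that minimum, TCONS_00106995 had 40.6% to 54.9% and n421229 31.2% to 81.9% of the even-spread value, on few reads. Over the libraries, n413804, n411770 and n424069 had 65.2% to 92.7% of the even-spread value, and n411773, n415211 and n415400 had 3.11% to 30.6%. Shorter features at 0.5 to 2 RPKM had a median coverage of 38.45% to 40.47% over the libraries. At 2 to 10 RPKM it was 71.72% to 74.98%. In these bands n411770 lay above the median in every library, and n411773, n415211 and n415400 lay below it. n413804 lay above it only in vehicle replicate 1. n424069 lay above it in vehicle and below it in retinoic acid replicate 2, with retinoic acid replicate 1 outside the bands. The 2 features just under 10000 bases, of 9997 and 9985 bases, had mean coverages of 88.7% and 96.3% and mean RPKM of 18.0 and 21.4. The 2 just above, of 10063 and 10141 bases, had 4.69% and 3.13% at 0.136 and 0.0640 RPKM. The mix of identifier series also differed between the classes: n features made up 292 (34.3%) of the features of 5000 to under 10000 bases and 80% of those of 10000 or more.

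**Figure D3:**
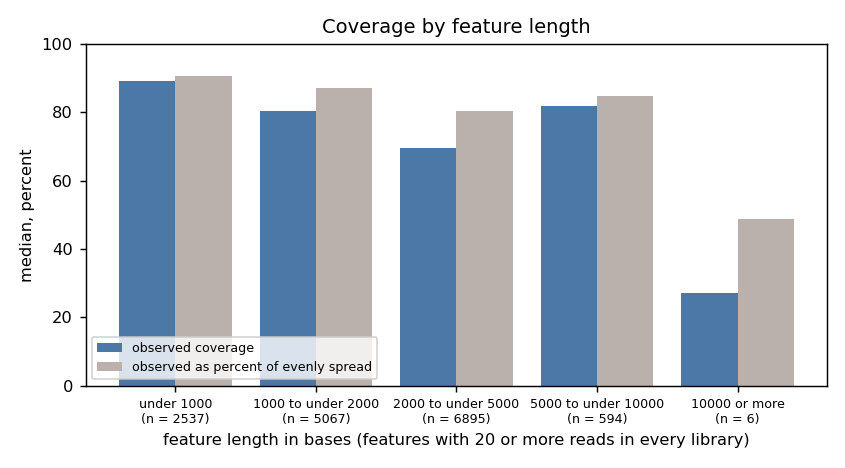
Median over features with at least 20 reads in every library, by length, of the mean coverage (blue) and of the coverage as a percent of that of evenly spread reads (grey). The bars stand at 69.5% or more in the 4 shorter classes and at 27.0% and 48.9% for the 6 features of 10000 bases or more. The classes were not matched for abundance, and none of these 6 features stands near 48.9%.

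By identifier series, the 8 n members held 99.6% of the reads in the 10 features and the 2 TCONS_ members 0.378%. The mean RPKM of the n members ran from 0.0640 to 6.25 and that of the TCONS_ members from 0.0401 to 0.207. The median of the mean coverage was 12.4% in the former and 4.09% in the latter. Among features with reads in some library, only 2 of 43399 in the TCONS_ series reached this length (0.00461%), against 8 of 27278 in the n series (0.0293%). The TCONS_ series nevertheless held more features of 5000 to under 10000 bases (559 against 292). With 2 TCONS_ members, no difference between the series in abundance or coverage can be read from these values.

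The comparison addresses the response of long RNAs to retinoic acid, which is the subject of the series. Of the 8 members that passed the filter on low counts, n424069 was lower after retinoic acid by edgeR's quasi-likelihood test (called at an adjusted p under 0.05), and 0 were higher. Over all 32160 features tested, 1.19% were called lower, 0.634% higher and 1.83% in either direction, so 1 call in 8 members is a count too small to set beside them.

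n424069 held 213 and 246 reads in vehicle and 49 and 136 in retinoic acid. Its normalised count (reads scaled to the effective library size) fell from 231 ± 33 to 90.3 ± 55 (SD, n = 2). The log2 fold change was -1.34 (SE 0.32), a level 2.54-fold lower, with an edgeR adjusted p = 0.0162 over all features tested. The groups did not overlap. The 2 retinoic acid libraries also differed from each other, and the size of the change rests on the lower one: without retinoic acid replicate 1 the log2 fold change was -0.85 (edgeR adjusted p = 0.512), and without retinoic acid replicate 2 it was -2.15 (edgeR adjusted p = 0.000431). Without vehicle replicate 2 the feature was not called either (log2 fold change -1.19, edgeR adjusted p = 0.084). In each of these fits 1 group has a single library, which is assumed to vary like the pair of the other group, so their p-values rest on that pair and on the spread shared across features. DESeq2 gave an adjusted p = 0.0944 and edgeR with library totals alone an adjusted p = 0.28. In bulk RNA, fewer cells of a type and less of this RNA per cell cannot be told apart.

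**Figure D4:**
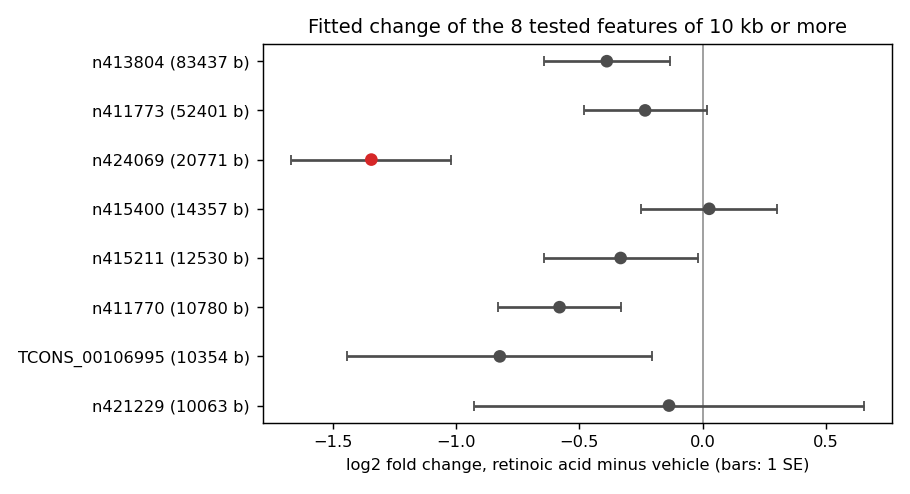
Fitted log2 fold change, retinoic acid minus vehicle, of the 8 features of 10000 bases or more that were tested, with bars of 1 SE; red marks the one called. n424069 stands at -1.34, and the others lie between -0.82 and 0.03 with none called.

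The next largest well-read difference was that of n411770, whose normalised count was 650 ± 106 in the vehicle and 435 ± 61 in the retinoic acid libraries (SD, n = 2). Its log2 fold change was -0.58 (SE 0.25), with an edgeR adjusted p = 0.355, and it was one of 2 members with an unadjusted p under 0.05. At an unadjusted p under 0.05, 10.3% of all features tested differed. The longest feature, n413804, had 4642 ± 972 in vehicle and 3546 ± 123 in retinoic acid, a log2 fold change of -0.39 (SE 0.26; edgeR adjusted p = 0.685). Here the normalised counts of the groups did not overlap, but their RPKM did.

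The other tested members were not called, though on simulated data this test called only 4 of 100 changes of 2-fold. Those changes were placed at random among all features tested, so this rate is not that of well-read members. n415211 had a log2 fold change of -0.33 (SE 0.31) and n411773 one of -0.23 (SE 0.25), with edgeR adjusted p = 0.840 and 0.877. n415400, whose reads lie on 369 to 602 bases, gave 0.03 (SE 0.27), and its sign turned to -0.06 without vehicle replicate 2 and to -0.28 without retinoic acid replicate 2. TCONS_00106995 gave -0.82 with an SE of 0.62, and n421229 gave -0.14 with an SE of 0.79. For these scarce features the errors are as large as a change of 1.5-fold or more.

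The fitted change was below 0 for 7 of the 8 tested members, and for 49.7% of all features tested. The median was -0.36 among the members and 0.0033 over all features. In 6 of the 8 tested members both retinoic acid libraries had lower normalised counts than both vehicle libraries. Over all features tested the share was 19.1%, or 38.9% in either direction. On the RPKM scale, which uses library totals alone, 4 of the 8 did so, against 17.4% of all. The 697 tested features of 5000 to under 10000 bases had a median of 0.0008, with 49.8% below 0, and 16 of them were called lower and 4 higher. These members are few and were not tested as a group.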

How the data were processed

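Each deposited table lists the features of 1 library with a count of unique reads, a length, a coverage and an RPKM, per the file headers. Counts are raw whole numbers that sum to the header total; a feature missing from a table was given 0. The RPKM were made by the authors from count, length and header total; values recomputed that way differed by a relative 2.2e-08 or less. Coverage is deposited with a percent sign and was read as the percent of the length covered; its definition is not stated, and 1 value in each retinoic acid table lies above 100% (at most 100.25%), none of them of a member (at most 92.5%). For aligner, annotation, build and assembly: not given in the sources used here. Groups and replicate numbers came from the sample titles.

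The test on the counts of all features was that of edgeR 4.0.16, run in R 4.3.3 (filterByExpr, TMM factors 0.956 to 1.07, glmQLFit and glmQLFTest, two-sided, Benjamini-Hochberg over 32160 features, called at an adjusted p under 0.05), after a test on simulated data. The simulated data had 2 libraries per group, with changes placed at random among all features tested. In them, 53 of 100 changes of 4-fold and 4 of 100 changes of 2-fold were called, with 0 false calls. A feature that was not called may thus still differ. SEs were derived from the quasi-likelihood F statistic. Alternatives included DESeq2 1.42.0 and limma-voom (limma 3.58.1). All 10 members are identified because they are few; the rule for the text had named the called, the most abundant, the longest, the best and least covered, and those at the length limit. The members and the tests were chosen with earlier results of these data known.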

Additional observations from a re-analysis of the deposited data

How the results depend on the processing

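The call of n424069 was the only one among the members, and it was kept in limma-voom (adjusted p = 0.000315), with upper-quartile factors, without a filter, with at least 50 counts in at least 2 libraries and with the replicate number as a block (1 member called, adjusted p = 0.00021; median log2 fold change of the members -0.35). It was lost, leaving 0 members called, in DESeq2 (297 of all features called), with library totals alone (158 called), and with coverage of at least 50% required in at least 2 libraries, where n424069 was not tested; leaving out 1 library gave 0 to 1 calls, with the lone library of a group assumed to vary like the other pair. At an unadjusted p under 0.05 edgeR had 2 members. Over all features, the other fits called 289 to 764 against 588. The block was kept as an alternative because deviations of libraries with the same number had a correlation of 0.0633 over features and no label ties the numbers to a shared culture; it changed no other member's call. The median log2 fold change of the members was -0.36, -0.46 in DESeq2, which fits all 10, and -0.45 to -0.32 with 1 library left out. Of 88 alternative fits of single members, 86 kept their direction, and the 2 that turned were those of n415400, at -0.06 and -0.28 without vehicle replicate 2 and retinoic acid replicate 2; over the fits that left out 1 library it ran from -0.28 to 0.27.

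The members' mean share of reads was 0.0699%, 0.0188% without n413804 and 0.0986% when the 10 features with the most reads were left out of the total; leaving out 1 library gave 0.0630% to 0.0746%. Mean median coverage was 27.0%, 38.9% with at least 100 reads in every library, 8.08% over all 10 members and 38.3% at 15000 bases or more, where 3 members had reads in every library; the members differ between these sets. Depth limits the 4 scarce members, with at most 24 reads.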
